A study of Mus musculus with 6 samples.

Results

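The 37 genes described here encode enzymes of cholesterol synthesis, the sterol sensors and transcription factors that control them, the enzymes that make, desaturate and elongate fatty acids, and a pair of sterol exporters. They were taken by name as a metabolic module and were found by symbol among the 55487 gene identifiers of the count table. All 37 passed the filter on low counts, which left 19015 genes for testing. By role they fell into 18 genes of sterol synthesis, 6 of sterol sensing and sterol transfer, 4 of fatty acid synthesis, 7 of desaturation and elongation, and 2 of sterol efflux.

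The module was measured by bulk sequencing of polyA RNA in cultures labelled as endothelial cells (ECs) from the skin of C57BL/6 mice. Cells of 4 to 6 mice aged 2 to 3 months were taken for an isolation, enriched with beads against CD31, and kept for 48 hours in medium with normal glucose (5 mmol/L, n = 3) or high glucose (20 mmol/L, n = 3). Both groups were the same genotype. The paper counts these replicates by mice, whereas the labels describe several mice pooled for an isolation. Neither says plainly that each culture was its own isolation, so P values measure the spread between these cultures, which may be technical. The comparison asks how these transcripts differ between such cultures exposed to a glucose concentration that stands for diabetic hyperglycemia and cultures in normal glucose.

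Cholesterol is built from acetyl-CoA by a long chain of enzymes in the cytosol and endoplasmic reticulum. When sterols in that membrane fall, the escort protein SCAP carries the precursors of the transcription factors SREBP-1 and SREBP-2 to the Golgi, where they are cut and released, and when sterols rise, INSIG proteins hold SCAP back. SREBP-2 is best known for driving genes of sterol synthesis and SREBP-1 for driving genes of fatty acid synthesis, while liver X receptors (LXRs), which sense oxidized sterols, drive the exporters ABCA1 and ABCG1. In ECs, membrane cholesterol bears on caveolae and on receptor signaling at the cell surface.

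The 6 libraries held between 120192466 and 146881356 counts, and the members between 1041 counts (Acacb) and 113890 counts (Scd2) in a single library, so none was near the floor of 3 counts. Values below are CPM, each library's counts brought to the same total, with edgeR's TMM factors (trimmed mean of M values), and adjusted P values are from edgeR's quasi-likelihood test over all 19015 genes. The cultures went against part of their label. Pecam1, which encodes CD31, lay between 0.0634 and 0.152 CPM, and Tie1, Emcn, Cldn5 and Robo4, another 4 of 14 endothelial markers, were at 0 in at least 1 library. Some other endothelial markers were present, with Eng between 136 and 166 CPM and Flt1 between 38.3 and 56.6 CPM. Egfl7 lay between 9.27 and 11.7 CPM, and Kdr had a mean of 4.96 CPM in normal glucose and 5.50 CPM in high glucose. Values of Cdh5, Tek, Vwf, Erg and Esam, also on the list, are not given here. Of the 14, 10 were tested, 2 called higher (20%) and 3 lower (30%), where 16.9% and 14.5% of all tested genes were. Their sum, most of it from Eng, lay between 215.5 and 243 CPM in normal glucose and between 194 and 199.8 CPM in high glucose. The 12 fibroblast markers summed to between 39611 and 42866 CPM in normal glucose and between 72066 and 77028 CPM in high glucose. Of these 12, 10 were called higher (83.3%) and 2 lower (16.7%), against the same shares of all tested genes. The part of any other cell type in the results below was not tested, and in bulk RNA a change per cell and a change in the share of a cell type cannot be told apart.

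Across the module, 14 of the 37 members were called higher in high glucose at an adjusted P value under 0.05, where 16.9% of all tested genes were, and 1 was called lower, where 14.5% of all tested genes were. In 19 members every high-glucose culture lay above every normal-glucose culture, against 25.1% of all tested genes, in 1 member every one lay below, against 21.3%, and in the other 17 the groups overlapped. The median log2 fold change was 0.11 over the members and 0.0062 over all tested genes, and 31 members had a fold change above 0. The shifts were small for the most part. Only Abca1 passed a log2 fold change of 0.50 under TMM scaling, and 22 members were not called. Scaling by library size alone moved the median of all tested genes to -0.11 and left 9 members called higher and 3 lower, so the counts above are relative to the TMM center. With 3 cultures against 3, an exact permutation test of a single value cannot go below P = 0.1.

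**Figure D1:**
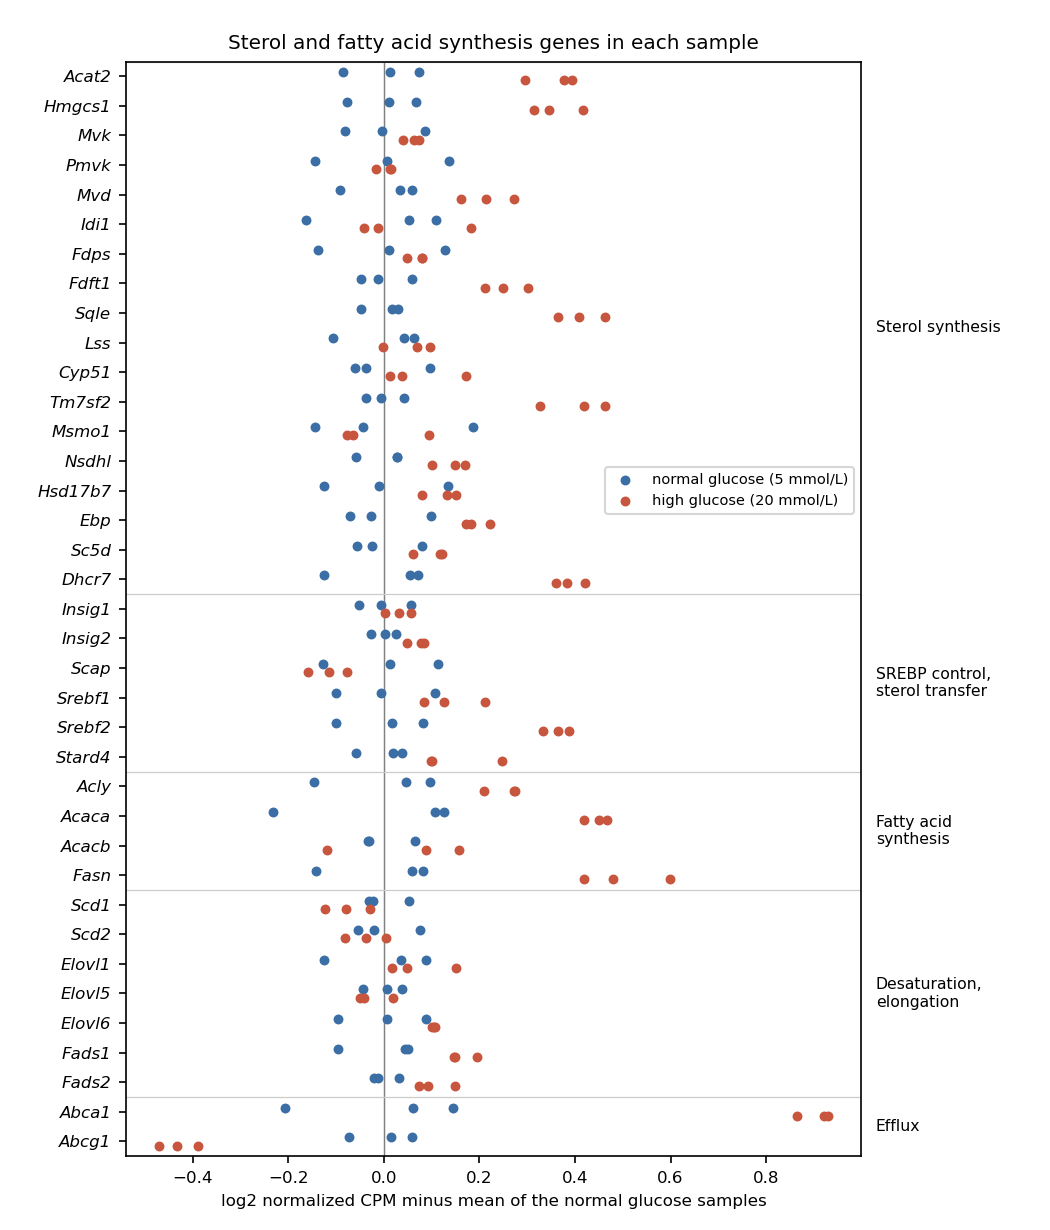
Each row is 1 of the 37 genes, and each point is 1 culture, placed by its log2 normalized CPM minus the mean of the 3 normal-glucose cultures of that gene. Blue points are normal glucose and red points high glucose, and the groups separate in 20 rows, with Abca1 far to the right and Abcg1 the only one entirely to the left.

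In the sterol synthesis arm, 8 of 18 enzymes (44.4%) were called higher, against 16.9% of all tested genes, and none lower, against 14.5%. Of the 18, 17 had a fold change above 0, and the median log2 fold change was 0.13. Those called included early and late steps of the chain. Before squalene is oxidized, 4 of 8 enzymes were called (Acat2, Hmgcs1, Mvd and Fdft1), with a median log2 fold change of 0.14, and from squalene epoxidation on, 4 of 10 were called (Sqle, Tm7sf2, Ebp and Dhcr7), with a median of 0.13. Called and uncalled enzymes were interspersed along the chain.

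Sqle encodes squalene epoxidase, which adds the first oxygen to the sterol skeleton and is counted among the rate-limiting steps (ENSMUSG00000022351, GRCm38 chr15:59315077-59331192, plus strand). It measured 106, 112 and 111 CPM in normal glucose and 141, 151 and 146 CPM in high glucose. The groups lay apart by more than the range within either, and the log2 fold change was 0.41 ± 0.05 (SE, n = 3 per group, adjusted P = 0.000178), the largest of the sterol arm. Hmgcs1, which condenses acetyl-CoA and acetoacetyl-CoA into HMG-CoA (ENSMUSG00000093930, chr13:119690379-119708260, plus strand), measured 197, 189 and 178 CPM in normal glucose and 234, 251 and 239 CPM in high glucose. Its log2 fold change was 0.36 ± 0.06 (SE, adjusted P = 0.000833). Acat2, a cytosolic thiolase that supplies acetoacetyl-CoA one step earlier, measured 128, 115 and 123 CPM against 149, 158 and 160.1 CPM, a shift of 0.35 ± 0.06 on the log2 scale (SE, adjusted P = 0.00103). Both first steps were thus higher in all 3 high-glucose cultures than in any normal-glucose culture.

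Tm7sf2 encodes a sterol C14 reductase of the endoplasmic reticulum and was among the least abundant members, with 14.7, 14.4 and 15.2 CPM in normal glucose and 20.3, 18.5 and 19.7 CPM in high glucose. Its log2 fold change of 0.40 ± 0.06 (SE, adjusted P = 0.000577) was close in size to that of Sqle. Dhcr7, the reductase that turns 7-dehydrocholesterol into cholesterol, measured 27.0, 30.9 and 30.5 CPM against 39.4, 37.8 and 38.3 CPM, a shift of 0.39 ± 0.06 on the log2 scale (SE, adjusted P = 0.000969). Acat2, Hmgcs1, Sqle, Tm7sf2 and Dhcr7 kept their call in all 19 alternative fits.

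The remaining 3 sterol enzymes called had smaller shifts. Fdft1, squalene synthase, rose from 82.0 ± 3.14 to 97.9 ± 3.05 CPM (mean ± SD, n = 3 each), a shift of 0.25 on the log2 scale (adjusted P = 0.0045) that passed in every alternative but library size scaling, where it was 0.14. Mvd, which decarboxylates mevalonate diphosphate, rose from 43.2 ± 2.39 to 50.1 ± 1.93 CPM, a shift of 0.21 on the log2 scale (adjusted P = 0.0185). Ebp, the sterol isomerase also known as emopamil-binding protein, rose from 36.3 ± 2.24 to 41.4 ± 0.759 CPM, a shift of 0.19 on the log2 scale (adjusted P = 0.0289). The calls of the last 2 were less stable. Under library size scaling the values of Mvd and Ebp were 0.10 and 0.076, and under upper quartile scaling 0.17 and 0.15, and neither was called, nor was Ebp with no filter on low counts. That of Mvd was also lost without normal-glucose replicate 2 (0.16), high-glucose replicate 1 (0.20) or high-glucose replicate 3 (0.17), and that of Ebp without any one culture but normal-glucose replicate 1 (0.15 to 0.19).

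Of the 10 sterol enzymes that did not pass, Nsdhl came nearest. This dehydrogenase, which takes part in removing the methyl groups at C4, measured 78.1, 82.8 and 82.8 CPM in normal glucose and 87.1, 91.4 and 90.1 CPM in high glucose, without overlap (log2 fold change 0.14, 95% CI 0.03 to 0.25, adjusted P = 0.0602). The other 9 overlapped between the groups, with log2 fold changes from -0.02 (Msmo1, the C4 methyl oxidase) to 0.12 (Hsd17b7, a ketosteroid reductase of the same complex). They included the kinases Mvk and Pmvk, the isomerase Idi1, the farnesyl diphosphate synthase Fdps, the lanosterol synthase Lss, the lanosterol demethylase Cyp51 and the desaturase Sc5d. Fdps, which stands at the branch to isoprenoids, measured 174, 144 and 159.9 CPM against 164, 168 and 168 CPM, and its 95% CI ran from -0.08 to 0.21 on the log2 scale. Pmvk had equal means of 32.3 CPM and a 95% CI from -0.15 to 0.15. The upper bounds of the intervals of these genes did not exceed 0.27 (Hsd17b7), below the value of Sqle.

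Because a ratio of the counts of 2 genes within a library does not depend on the library's scaling factor, members of a chain can be set against each other. Such a ratio keeps any trend on transcript GC content and length. The log2 ratio of Sqle to Fdps counts was -0.71, -0.36 and -0.53 in normal glucose and -0.22, -0.15 and -0.21 in the high-glucose cultures. The 2 groups did not overlap, and the mean ratio was 0.34 higher in high glucose. The log2 ratio of Hmgcs1 to Insig1 rose in the same manner by 0.33, from 0.62 ± 0.10 to 0.95 ± 0.04 (mean ± SD, n = 3 each). These pairs were picked after their values had been seen. In the pairs given below, too, a gene called higher was set over one not called or called lower, so a gap there is no separate result. Of the other ratios taken, those of Scd2 to Scd1, Fads1 to Fads2 and Insig1 to Insig2 overlapped between the groups.

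**Figure D2:**
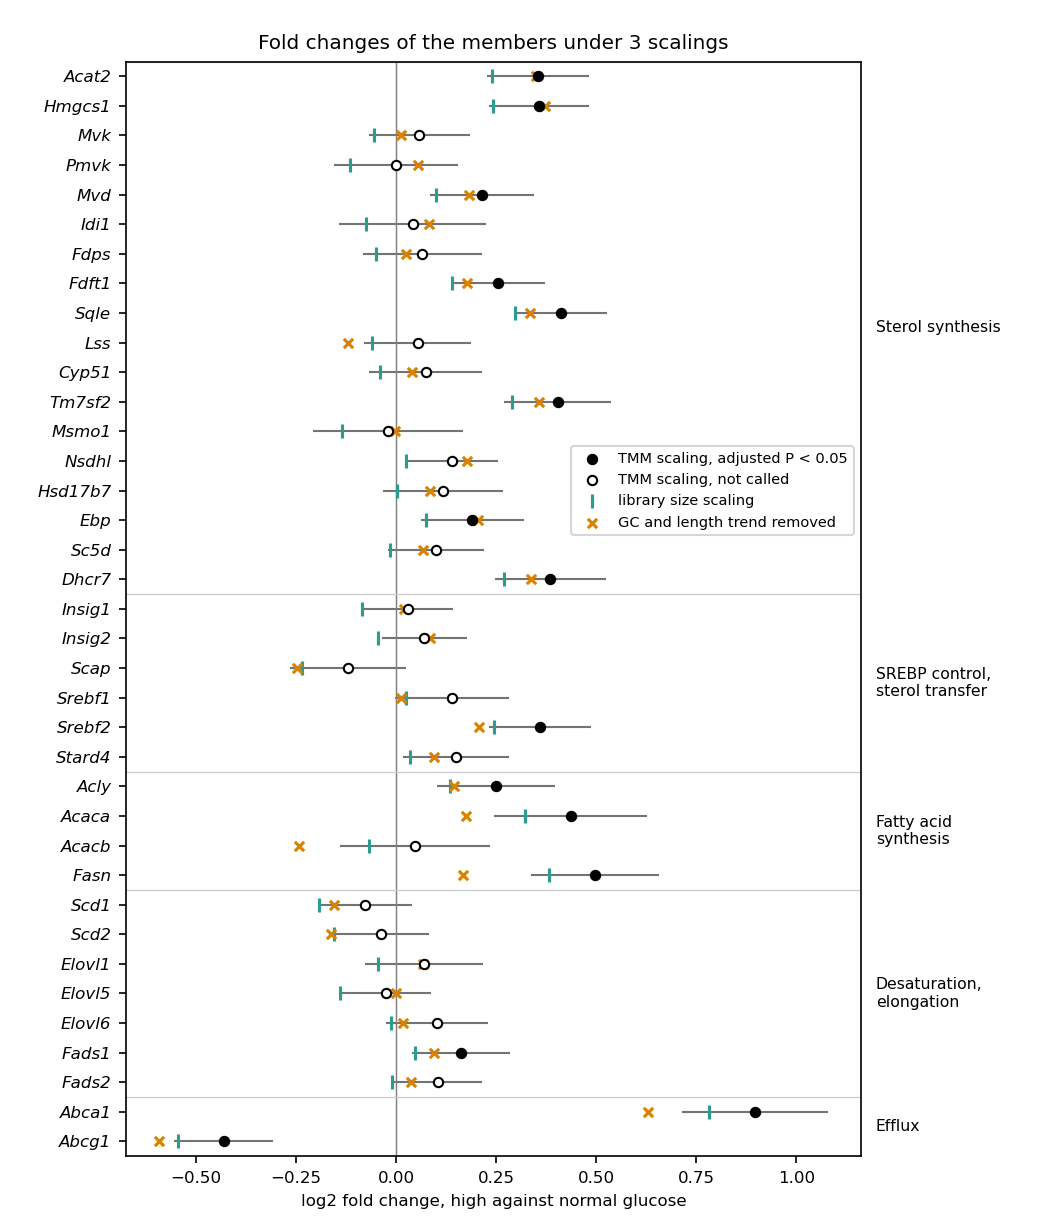
Points give the log2 fold change of each gene in high against normal glucose with TMM scaling, filled where the adjusted P value was under 0.05, and lines give the 95% CI (n = 3 per group). Green bars show library size scaling, which moves all genes to the left by about the same amount, and orange crosses show values after each library's trend on transcript GC content and length was removed, which moved Fasn, Acacb, Abca1 and Acaca most.

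Letters of known binding motifs were counted in the 250 bases before each annotated start (RefSeq, GRCm38.p6), where 29 of the 37 members had an entry. Fdps, Fdft1, Sqle, Stard4, Scd1, Scd2, Fads1 and Abcg1 had none. Both strands were searched for 4 motifs. The sterol regulatory element, bound by SREBPs, was searched in the form TCACNCCAC. The box bound by NF-Y was searched as CCAAT. On the opposite strand the same box is printed as ATTGG. The E-box was searched as CACGTG. The GC box, bound by Sp1, was searched as GGGCGG. A gene with several starts was counted once if any of its windows held the letters. Matches to the same or to different motifs were counted independently of any overlap.

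A CCAAT box stood in 14 of 15 sterol synthesis genes, Acat2 being the exception, and in 4 of 8 genes of fatty acid synthesis, desaturation and elongation, against 40.0% of 12359 tested genes with a promoter entry. It was found in 5 of the 6 sterol genes called higher and in all 9 that were not called, so its presence did not separate them. The sterol regulatory element, in the form searched, was found in Hmgcs1 alone among the 29 members, against 1.27% of tested genes. Other forms of it were not searched. Some windows lay wholly within annotated exons, as those of Idi1 and Tm7sf2 did. The GC box stood in 14 of 15 sterol synthesis genes and in 3 of 8 genes of the fatty acid arm, against 60.1%, and the E-box in 7 of the 29 members, against 9.34%. Windows of 4 members are printed from 5′ to 3′ with matches to the sterol regulatory element, the CCAAT box and the E-box, on either strand, in capitals. Hmgcs1 (chr13:119690101-119690350, plus strand) is shown because it held the one match to the sterol regulatory element, beside 3 CCAAT boxes. Sc5d (chr9:42264301-42264550, minus strand) is shown as a sterol gene that was not called and still held a CCAAT box and an E-box. Fasn (chr11:120824548-120824797, minus strand) is shown for its 3 matches to the CCAAT box, of which a pair overlap on opposite strands in the letters CCAATTGG. Abca1 (chr4:53159896-53160145, minus strand), the member that moved most, is shown for an E-box in a window with no CCAAT box.
Hmgcs1: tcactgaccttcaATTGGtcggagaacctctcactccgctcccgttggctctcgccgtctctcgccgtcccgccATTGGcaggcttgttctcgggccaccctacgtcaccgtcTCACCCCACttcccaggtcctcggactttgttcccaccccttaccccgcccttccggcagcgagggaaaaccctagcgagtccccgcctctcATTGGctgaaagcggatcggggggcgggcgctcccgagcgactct
Sc5d: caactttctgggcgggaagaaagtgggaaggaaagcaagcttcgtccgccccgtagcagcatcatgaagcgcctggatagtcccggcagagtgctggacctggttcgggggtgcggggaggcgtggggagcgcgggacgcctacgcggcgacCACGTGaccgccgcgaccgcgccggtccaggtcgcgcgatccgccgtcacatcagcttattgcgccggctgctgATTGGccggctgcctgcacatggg
Fasn: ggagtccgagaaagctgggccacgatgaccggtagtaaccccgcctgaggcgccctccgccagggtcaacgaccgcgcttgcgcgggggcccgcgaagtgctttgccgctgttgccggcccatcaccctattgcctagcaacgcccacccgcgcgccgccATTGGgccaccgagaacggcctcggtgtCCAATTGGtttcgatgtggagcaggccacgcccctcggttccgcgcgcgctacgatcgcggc
Abca1: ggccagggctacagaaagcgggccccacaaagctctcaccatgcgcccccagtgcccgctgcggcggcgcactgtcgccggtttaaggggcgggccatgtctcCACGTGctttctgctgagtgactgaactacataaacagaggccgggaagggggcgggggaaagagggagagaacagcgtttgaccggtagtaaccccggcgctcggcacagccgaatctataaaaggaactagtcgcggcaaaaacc

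Of the 6 genes of sterol sensing and sterol transfer, Srebf2 alone was called, and the median log2 fold change was 0.11. This is 16.7% of the group, near the 16.9% of all tested genes called higher. Srebf2 encodes the precursor of SREBP-2 (ENSMUSG00000022463, chr15:82147181-82205379, plus strand). It measured 163, 176 and 184 CPM in normal glucose and 228, 219 and 224 CPM in high glucose. All 3 high-glucose cultures lay above all 3 controls, with a log2 fold change of 0.36 ± 0.06 (SE, adjusted P = 0.000928). The call held in all 19 alternative fits, with a smaller value of 0.21 after removal of a GC and length trend from every library. Srebf1, which encodes SREBP-1, measured 132, 141 and 153 CPM against 164, 150.4 and 155 CPM, so that the groups overlapped by a single pair of cultures, and its log2 fold change of 0.14 did not pass (95% CI -0.002 to 0.28, adjusted P = 0.123). The log2 ratio of Srebf2 to Srebf1 counts within a library was 0.30, 0.32 and 0.27 in normal glucose and 0.47, 0.55 and 0.54 in the high-glucose cultures, without overlap.

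The sensors themselves moved little. Insig1, an anchor of SCAP that is itself a target of SREBPs, measured 118, 127 and 122 CPM against 125, 127 and 122 CPM (log2 fold change 0.03, 95% CI -0.08 to 0.14, adjusted P = 0.697), and its interval excluded shifts of the size of Srebf2 or Hmgcs1. Insig2, the other anchor, lay between 53.3 and 55.3 CPM in normal glucose and between 56.2 and 57.6 CPM in high glucose, which did not overlap but differed by 0.07 on the log2 scale (adjusted P = 0.297). Scap was the member of this group with the lower mean in high glucose, at 132, 146 and 156 CPM against 137, 129 and 133 CPM, with overlap (log2 fold change -0.12, adjusted P = 0.189). It passed the threshold without normal-glucose replicate 1 (-0.20), under library size scaling (-0.23), and after the trend removal (-0.25). Stard4, a soluble carrier of sterols between membranes, lay between 37.7 and 40.2 CPM and then between 41.9 and 46.5 CPM (log2 fold change 0.15, adjusted P = 0.0801).

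The fatty acid arm, taken as 4 genes of synthesis and 7 of desaturation and elongation, had 4 of 11 members (36.4%) called higher. None was called lower, and the median log2 fold change was 0.10. Of all tested genes, 16.9% were called higher and 14.5% lower. The 2 stages differed in their values. In synthesis 3 of 4 genes were called higher and the median was 0.34. In desaturation and elongation 1 of 7 was called higher (14.3%), near the share of all tested genes, and the median was 0.07. The difference between these medians was not tested.

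Fasn encodes fatty acid synthase, the enzyme that assembles palmitate (ENSMUSG00000025153, chr11:120805846-120824547, minus strand). It measured 194, 223 and 227 CPM in normal glucose and 324, 286 and 298 CPM in high glucose. The lowest high-glucose culture lay well above the highest control, and the log2 fold change was 0.50 ± 0.07 (SE, 95% CI 0.34 to 0.66, adjusted P = 0.000478). Acaca, acetyl-CoA carboxylase 1, which makes the malonyl-CoA that Fasn consumes, measured 69.0, 88.5 and 87.3 CPM against 112, 108 and 111 CPM. Its log2 fold change was 0.44 ± 0.09 (SE, adjusted P = 0.00334), and normal-glucose replicate 1 was the low value. Acly, ATP citrate lyase, which turns citrate exported from mitochondria into cytosolic acetyl-CoA for both arms, measured 237, 271 and 280.5 CPM against 317, 303 and 317 CPM, a shift of 0.25 ± 0.07 on the log2 scale (SE, adjusted P = 0.0166).

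Acacb, the carboxylase isoform at the mitochondrial surface whose product restrains fatty acid oxidation, was the least abundant member, at 9.50, 10.2 and 9.50 CPM against 10.8, 8.95 and 10.3 CPM (log2 fold change 0.05, 95% CI -0.14 to 0.24, adjusted P = 0.711). The log2 ratio of Acaca to Acacb was 3.06 ± 0.18 in normal glucose and 3.46 ± 0.12 in high glucose (mean ± SD, n = 3 each), without overlap. The sizes in this group moved with the GC content and length of the transcripts. After each library's trend on both was removed, the log2 fold changes of Fasn, Acaca and Acly were 0.17, 0.18 and 0.14, still called, and that of Acacb was -0.24 and called lower. The call of Acly was lost under library size scaling (0.13), with no filter on low counts (0.23), and without high-glucose replicate 1 (0.22) or replicate 3 (0.22).

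Several markers of fat cells were higher alongside these genes. Of 8 adipocyte markers 7 were tested, and 5 of them (Adipoq, Plin1, Cidec, Cfd and Retn) were called higher, where 16.9% of all tested genes were, and none lower. Fabp4, which held most of their summed level (169 CPM in the normal-glucose and 182 CPM in the high-glucose cultures, a log2 difference of 0.11), and Pparg (0.04) did not pass. Their summed level lay between 260.4 and 315 CPM in normal glucose and between 311 and 350.3 CPM in high glucose, and Lep was at 0 in at least 1 library of each group. Of 8 sebocyte markers 3 were tested and none was called, with Awat1 at 0 in all 6 libraries. What share of the fatty acid synthesis values came with either cell type was not tested.

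Desaturases and elongases were near level. Scd1 and Scd2, stearoyl-CoA desaturases that place the double bond of oleate, were the most abundant members. Scd1 measured 666, 702 and 662 CPM in normal glucose and 621, 663 and 640.2 CPM in high glucose, with overlap (log2 fold change -0.08, 95% CI -0.19 to 0.04, adjusted P = 0.293). Scd2 measured 751, 803 and 733 CPM against 742, 764 and 721 CPM (log2 fold change -0.04, 95% CI -0.16 to 0.08, adjusted P = 0.633). Both were thus slightly below their controls on average while Fasn, which feeds them, was above. The log2 ratio of Fasn to Scd1 was -1.78, -1.65 and -1.55 in normal glucose and -0.94, -1.21 and -1.10 in the high-glucose cultures, and this ratio did not overlap between the groups. With the trend on GC content and length removed, Scd1 and Scd2 were called lower, at -0.15 and -0.16.

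Fads1, the delta-5 desaturase of polyunsaturated fatty acids, was the member of this group that passed, at 207, 229 and 228 CPM against 245, 245 and 253 CPM, with a log2 fold change of 0.16 (adjusted P = 0.0478). Its call was the least stable of the module, since it held in 3 of 19 alternative fits and in none of the 6 that left out a culture (0.098 to 0.18). Fads2, the delta-6 desaturase, shifted by 0.11 on the log2 scale (adjusted P = 0.132) and Elovl6, which elongates palmitate, one of 0.10 (adjusted P = 0.203), both without overlap between the groups. Elovl1 and Elovl5, elongases of very long and of polyunsaturated chains, overlapped, with log2 fold changes of 0.07 and -0.02.

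**Figure D3:**
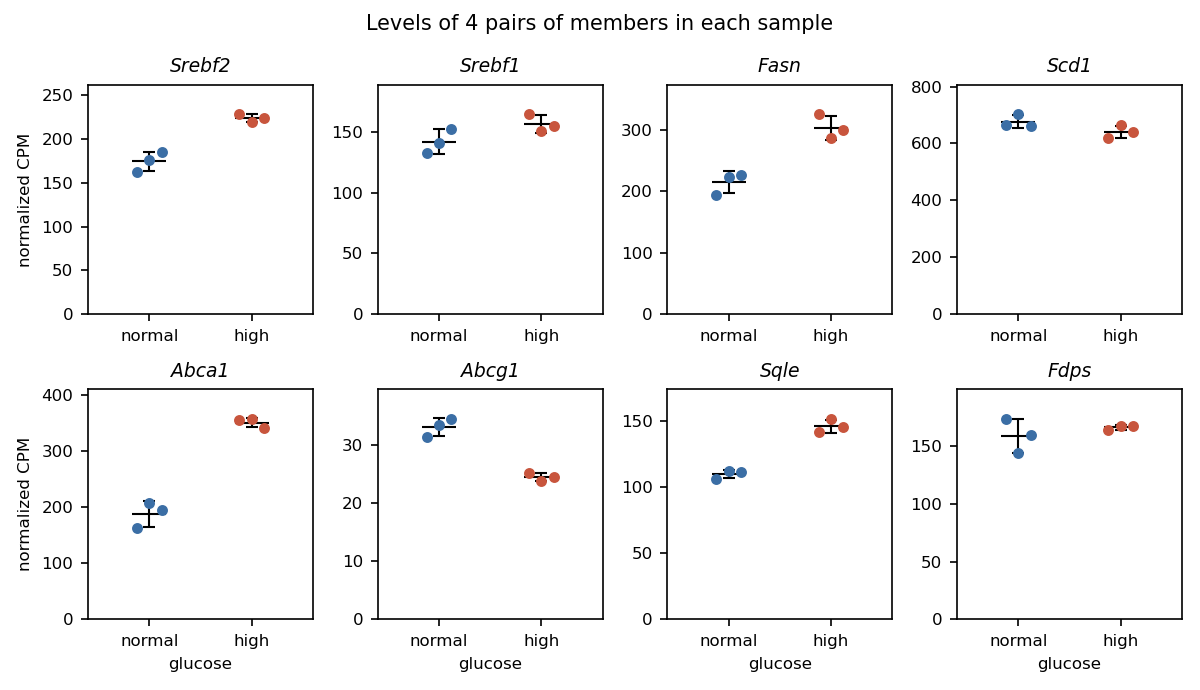
Each panel shows normalized CPM of 1 gene in the 3 normal-glucose (blue) and 3 high-glucose (red) cultures, with the mean and SD drawn as lines and every axis starting at 0. Srebf2, Fasn, Abca1 and Sqle lie higher in all high-glucose cultures, Srebf1, Scd1 and Fdps overlap, and Abcg1 lies lower.

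The 2 exporters moved apart. Abca1, which loads cholesterol and phospholipid onto lipid-poor apolipoproteins (ENSMUSG00000015243, chr4:53030787-53159895, minus strand), measured 163, 207 and 196 CPM in normal glucose and 355, 357 and 342 CPM in high glucose. Its log2 fold change of 0.90 ± 0.08 (SE, 95% CI 0.72 to 1.08, adjusted P = 1.97e-05) was the largest of the module. Abcg1, which passes cholesterol on to mature HDL (ENSMUSG00000024030, chr17:31057675-31117988, plus strand), measured 31.5, 33.5 and 34.5 CPM in normal glucose and 25.3, 23.9 and 24.5 CPM in high glucose. It fell by 0.43 ± 0.06 on the log2 scale (SE, adjusted P = 0.000216) and was the only member called lower under TMM scaling. Both calls held in all 19 alternative fits. The log2 ratio of Abca1 to Abcg1 counts was 2.37, 2.63 and 2.51 in normal glucose and 3.81, 3.90 and 3.80 in the high-glucose cultures. The difference of 1.33 does not depend on the scaling factor of a library. It does depend on GC content and length, since with that trend removed the log2 fold changes were 0.63 for Abca1 and -0.59 for Abcg1. The 2 genes are both known LXR targets, and in these cultures they did not move together.

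Normal-glucose replicate 1 stood below the other 2 controls in Acaca, Fasn, Acly and Abca1. The same held in further members, among them Srebf2, Srebf1, Sqle, Dhcr7 and Fads1. In others, among them Acat2, Hmgcs1 and Fdft1, it was the highest control. Over the whole count table, chi-square per degree of freedom was 54.7 and 36.7 between this culture and normal-glucose replicates 2 and 3. Between those 2 replicates it was 19.5. Without normal-glucose replicate 1, the median log2 fold change of the fatty acid arm was 0.038, and the calls of Acaca, Fasn, Acly and Abca1 held.

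Levels between genes were compared per kilobase of exon. On that scale the members ran from 1.01 CPM per kb for Acacb to 139.5 for Scd2 and 138 for Scd1 in normal glucose, and the last 2 did not differ beyond their spread. Acly (49.8), Acat2 (48.0) and Fads1 (45.9) followed with overlapping cultures, and then Hmgcs1 (41.0), Insig1 (39.5), Fdps (37.8) and Fads2 (36.0), where each neighbor again overlapped the next. Every normal-glucose culture of Fads1 lay above Hmgcs1, and every one of Fads2 above Cyp51. Most of the module lay between 14.03 (Mvk) and 31.3 (Cyp51), with Srebf1 at 25.2 and Srebf2 at 24.3. Elovl6, Stard4, Lss, Dhcr7, Acaca, Abcg1, Tm7sf2 and Acacb lay below 8 CPM per kb. In high glucose Srebf2 (31.2) stood above Srebf1 (27.8), and Abca1 went from 18.2 to 33.9 CPM per kb, where it overlapped Cyp51 (32.9).

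**Figure D4:**
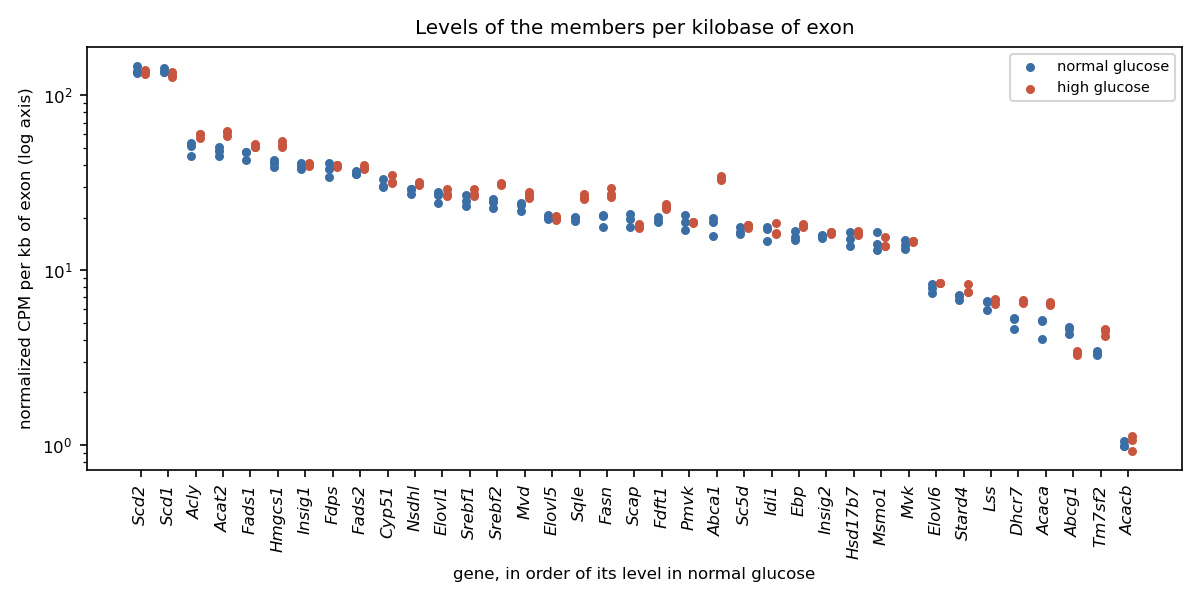
Genes are ordered along the x axis by their mean level in normal glucose, and the y axis gives normalized CPM per kilobase of exon on a log scale, with 1 point per culture. Scd2 and Scd1 stand apart at the top and Acacb at the bottom, and Abca1 shows the widest gap between its blue and red points.

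Some members share sequence or genomic bases with other genes, and the strand setting of the counting was not given in the sources used here. Of the 75-base words in Acat2 transcripts 33.9% also occur in its neighbor Acat3, which had a log2 fold change of 0.81, and with the copies summed the fold change of Acat2 was 0.50. Fdft1 overlaps 774 exonic bases of Ctsb on the other strand, a far more abundant protease gene (2086 CPM in normal glucose, 2626 CPM in high glucose, log2 fold change 0.33), so the value of Fdft1 is uncertain. Tm7sf2 shares 532 exonic bases with Vps51, which was level (log2 fold change 0.01). Cyp51 overlaps 166 exonic bases of Akap9 on the other strand (log2 fold change 0.56). Acaca shares 26.2% of its words with Gm5182, which held 2.15% of the counts of Acaca.

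Around the module, 82 further genes of sterol and fatty acid metabolism were counted, of which 80 were tested, 21 were called higher and 15 lower, with a median log2 fold change of 0.03. These are 26.3% and 18.8% of the tested, against 16.9% and 14.5% of all tested genes. Among 12 genes of SREBP processing and sterol sensing, 2 were higher and 2 lower, 16.7% each and near the shares of all tested genes. Mbtps1, the site-1 protease that makes the first cut in SREBP precursors, rose from 247 ± 18.6 to 306 ± 3.42 CPM (mean ± SD, n = 3 each, log2 fold change 0.31, adjusted P = 0.00345), and Erlin2, which binds cholesterol and restrains SCAP and SREBP, fell from 59.3 ± 3.15 to 50.9 ± 0.623 CPM (log2 fold change -0.22, adjusted P = 0.0121). Among 16 genes of uptake, traffic and esterification, 3 were higher (18.75%) and 5 lower (31.25%), against the same 16.9% and 14.5% of all tested genes. Scarb1, the HDL receptor, measured 61.4, 69.1 and 71.3 CPM against 100.1, 99.4 and 103 CPM (log2 fold change 0.58, adjusted P = 6.04e-05), and Vldlr, the VLDL receptor, measured 28.1, 31.9 and 30.7 CPM against 15.4, 16.2 and 15.1 CPM (log2 fold change -0.96, adjusted P = 1.92e-06). Uptake receptors thus moved in both directions.

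Of 10 further LXR and oxysterol genes, 3 were called higher and 2 lower, against 16.9% and 14.5% of all tested genes. Apoe, the apolipoprotein that accepts exported sterol, measured 319, 262 and 313 CPM in normal glucose and 616, 634 and 614 CPM in high glucose, a shift of 1.06 on the log2 scale (adjusted P = 3.09e-06) and larger than that of Abca1. Ch25h, which makes 25-hydroxycholesterol, measured 6.13, 6.13 and 6.26 CPM against 3.63, 2.76 and 2.51 CPM, a shift of -1.06 on the log2 scale (adjusted P = 0.000151). Among 14 sterol and isoprenoid enzymes 3 were higher (21.4%) and 1 lower (7.14%), against the same shares of all tested genes. The named pair were subunits of the same farnesyltransferase, with Fntb at 0.20 (adjusted P = 0.0306) and Fnta at -0.20 (adjusted P = 0.0311). Of 30 other genes of fatty acid and lipid synthesis 28 were tested, 10 were higher (35.7%) and 5 lower (17.9%), against 16.9% and 14.5% of all tested genes. The genes named here by largest rise and fall were paralogs. Another paralog, Hacd3, rose from 69.8 ± 2.25 to 101.7 ± 2.06 CPM (log2 fold change 0.54, adjusted P = 2.27e-05). Hacd2, a dehydratase of the elongation cycle, rose from 21.5 ± 0.710 to 42.1 ± 0.562 CPM (log2 fold change 0.97, adjusted P = 4.58e-07), and Hacd1, its paralog, fell from 16.1 ± 0.438 to 12.04 ± 0.326 CPM (log2 fold change -0.42, adjusted P = 0.00042).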

How the data were processed

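Polyadenylated RNA was sequenced from 6 cultures, 3 per glucose concentration. Groups and replicate numbers came from the sample titles. The authors used Trimmomatic for trimming, HISAT2 for alignment (GRCm38) and StringTie for raw counts per gene, which they deposited. Versions and strand setting are not given in the sources used here. Labels and methods differ on the RNA kit and the sequencing platform. Columns named for the control were taken as normal glucose.

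Of 55487 identifiers, 55141 had a symbol. The analysis used edgeR 4.0.16 under R 4.3.3. Genes were kept by filterByExpr at its minimum of 10 counts (15 in total), followed by TMM factors (0.954 to 1.05), the quasi-likelihood test of high against normal glucose over all 19015 genes, Benjamini-Hochberg adjustment and a threshold of 0.05. SEs came from the test statistic. The biological coefficient of variation was 8.44%. A floor of 3 counts was 0.0211 to 0.0258 CPM, and such floors cover counting error only. Replicates differed by more than sampling noise (chi-square per degree of freedom at least 9.03). The fit was checked on simulated counts.

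The 37 members, the pathway lists and the marker lists were chosen with earlier results of these data known. From each pathway list the called gene with the largest rise and that with the largest fall were named, provided its mean log2 CPM reached 1. All members were named. Hacd3 was named outside this rule, as a paralog of Hacd2 and Hacd1. Genes of its list with larger rises, such as Gpam (log2 fold change 0.81), were not. Exonic lengths, overlaps and shared words came from GENCODE for GRCm38, and promoters from RefSeq (GRCm38.p6). Alternatives were other scalings and filters, DESeq2 1.42.0, a likelihood ratio test, a robust fit, halved counts, a threshold of 0.01, the replicate block, removal of trends on GC content and length (mgcv 1.9.3), each culture left out and, added after the data were seen, sums with gene copies.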

Additional observations from a re-analysis of the deposited data

How the results depend on the processing

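Of the 15 members called, 10 kept their call in all 19 alternative fits, and Fdft1 lost it under library size scaling alone. Over 20 settings, 650 fold changes of single members kept direction and side of the threshold, 38 lost the call, 12 gained one and 40 changed sign, in 15 members. Of these 40, 37 were called in neither fit, and none belonged to a member called in the report. The other 3 came with the GC and length trend removed, for Lss (-0.12, also -0.12 but not called with the replicate block) and Acacb (-0.24, and -0.24 with the replicate block as well). Library size scaling turned 13 members: Mvk (-0.056), Pmvk (-0.11), Idi1 (-0.075), Fdps (-0.050), Lss (-0.061), Cyp51 (-0.041), Sc5d (-0.016), Insig1 (-0.085), Insig2 (-0.045), Acacb (-0.067), Elovl1 (-0.044), Elovl6 (-0.013) and Fads2 (-0.0097). The Pmvk log2 fold change, 0.00016 in the report, turned with RLE size factors (-0.0112), upper quartile scaling (-0.043), no filter (-0.020), the 1 CPM filter (-0.017), DESeq2 (-0.0112) and halved counts (-0.0189). Upper quartile scaling also turned Idi1 (-0.0022) and Insig1 (-0.013), the trend removal Elovl5 (0.00051), and with the block Msmo1 (0.0022). Leaving out single cultures gave ranges that spanned 0 for Pmvk (-0.079 to 0.053), Idi1 (-0.046 to 0.077), Fdps (-0.012 to 0.11), Lss (-0.015 to 0.075), Msmo1 (-0.10 to 0.060), Insig1 (-0.013 to 0.048), Acacb (-0.029 to 0.11) and Elovl1 (-0.0067 to 0.10). Hsd17b7 passed without normal-glucose replicate 2 (0.18), and Scap was called lower without normal-glucose replicate 1, under library size scaling and with the trend removed.

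Library size scaling gave 5 sterol synthesis members called higher, 2 of the fatty acid arm higher and 1 lower, 9 of all 37 higher and 3 lower, and 13 other pathway genes higher, against 1819 higher and 4884 lower among all genes (3212 and 2757 with TMM). The median log2 fold change was then 0.014 for sterol synthesis and reversed to -0.013 for the fatty acid arm. Upper quartile scaling gave a sterol median of 0.086, and dropping the filter on low counts left 2 of the fatty acid arm called higher. With the GC and length trend removed, 1 sterol member, 3 of the fatty acid arm, 6 of all 37 and 24 other pathway genes were called lower, the median of the fatty acid arm was 0.037, and among all genes 2904 were higher and 3794 lower. The replicate block added to it gave 3 and 5 lower and again a median of 0.037. A threshold of 0.01 left 2 of the fatty acid arm higher, 7 other pathway genes lower, and 1946 higher and 1671 lower among all genes. Why these settings differ was not tested.

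Leaving out 1 culture at a time gave 6 to 8 sterol members higher, 2 to 3 of the fatty acid arm higher, 10 to 13 of all 37 higher and 1 to 2 lower, 14 to 21 other pathway genes higher and 8 to 17 lower, and 1988 to 3149 higher and 2048 to 3065 lower among all genes. The medians ran from 0.099 to 0.14 for sterol synthesis and from 0.038 to 0.11 for the fatty acid arm. The lowest counts came without high-glucose replicate 1 (10 members higher, 8 other pathway genes lower, 2010 genes higher) or replicate 3 (10, 8 and 1988), and the lowest fatty acid median without normal-glucose replicate 1.

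The numbers 1 to 3 in both groups were not shown to pair the cultures, since deviations of same-numbered cultures correlated at 0.028, 0.075 and 0.11 over 12442 genes. With the replicate block, 8 sterol members, 3 of the fatty acid arm and 13 of all 37 were called higher and 1 lower, among 2909 higher and 2418 lower genes.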

Other observations

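Scd3, a paralog of Scd1 and Scd2 that is best known from sebaceous glands, held 158, 159 and 146 counts in normal glucose and 0, 138 and 194 counts in high glucose. The 0 stood in high-glucose replicate 1, where Scd1 and Scd2 measured 621 and 742 CPM. At that depth a count of 0 allows up to 0.0211 CPM, against 1.12 CPM or more in the other 5 libraries. The gene was singled out after its values were seen, and its difference did not pass (edgeR, adjusted P = 0.702).

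Acat3, the neighbor of Acat2, measured 50.8, 44.6 and 48.1 CPM in normal glucose and 80.2, 86.3 and 84.8 CPM in high glucose, a wider gap than that of Acat2. Tcp1, which shares 9.19% of the 75-base words of Acat2, shifted from 229 to 192 CPM (log2 fold change -0.25, adjusted P = 0.0038). How reads in shared words were divided among these genes was not tested.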
